A study of Mus musculus with 6 samples.

Results

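The interleukin-6 (IL6) family of cytokines and receptors was examined in TruSeq libraries of mouse frontal cortex. The family was taken as 9 genes of the 33000 in the count table, found by their symbols. They comprise 3 ligand genes (Il6, Lif and Cntf), 3 genes for receptors that bind a ligand (Il6ra, Cntfr and Il11ra1) and 3 genes for receptors that carry the signal into the cell (Il6st, Lifr and Osmr). The libraries came from 3 wild-type (WT) mice and 3 homozygous GFAP-IL6 mice, all of the C57BL/6 strain, 3 months old and given no treatment in the labels. The GFAP-IL6 transgene expresses IL6 under the promoter of Gfap, the gene of the astrocyte intermediate filament protein GFAP, so the cytokine is made in astrocytes. Every mouse gave its own library. The table has a single row for Il6, and reads of the transgene and of the mouse gene cannot be told apart in it.

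Most cytokines of this family signal through gp130, the protein encoded by Il6st, while interleukin-31 uses its own receptor paired with OSMR. IL6 first binds its receptor IL6R (Il6ra), and the pair then engages gp130, which activates JAK kinases and the transcription factor STAT3. LIF binds LIFR (Lifr) paired with gp130, CNTF uses CNTFR (Cntfr) together with LIFR and gp130, interleukin-11 uses IL11RA (Il11ra1) with gp130, and mouse oncostatin M signals mainly through OSMR (Osmr) paired with gp130. In brain, IL6R is found mainly on microglia, while its shed soluble form lets cells that lack it respond to IL6, a process known as trans-signalling. CNTFR is found mainly on neurons, and gp130 is present on most brain cells.

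The 3 members whose counts passed the test between groups, Il6, Il6ra and Osmr, are shown here by the 250 bases before their start in RefSeq, the stretch in which a promoter is usually found. The sequences are from RefSeq on GRCm38.p6 and run 5′ to 3′ on the strand of the gene, with matches to the searched motifs in capitals. They lie at chr5:30012864-30013113 on the plus strand for Il6, at chr3:89913197-89913446 on the minus strand for Il6ra and at chr15:6874314-6874563 on the minus strand for Osmr. For Il6 and Il6ra the RefSeq start is also that of the GENCODE M21 annotation, from which gene positions are given below. In M21 Osmr starts further upstream, at chr15:6874969, so its window lies inside the M21 gene.
Il6: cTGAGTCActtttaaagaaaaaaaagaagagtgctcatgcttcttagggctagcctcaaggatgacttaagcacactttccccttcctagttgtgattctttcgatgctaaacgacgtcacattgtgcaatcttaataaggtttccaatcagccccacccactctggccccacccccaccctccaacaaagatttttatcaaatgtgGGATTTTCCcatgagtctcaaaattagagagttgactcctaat
Il6ra: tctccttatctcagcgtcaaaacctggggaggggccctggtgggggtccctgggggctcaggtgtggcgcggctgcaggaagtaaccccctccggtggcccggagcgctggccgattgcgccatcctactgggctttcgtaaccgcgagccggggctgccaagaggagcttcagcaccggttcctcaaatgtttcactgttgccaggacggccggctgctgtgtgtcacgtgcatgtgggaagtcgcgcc
Osmr: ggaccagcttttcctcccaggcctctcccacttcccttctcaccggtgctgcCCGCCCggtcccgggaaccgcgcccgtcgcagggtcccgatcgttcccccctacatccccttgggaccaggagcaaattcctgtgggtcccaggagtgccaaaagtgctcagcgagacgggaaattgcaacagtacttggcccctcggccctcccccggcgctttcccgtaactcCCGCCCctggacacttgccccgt

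The motifs were searched on both strands and spelled TTCNNNGAA for STAT factors, TGANTCA for AP-1, GGANTTTCC for NF-kB, TGACGTCA for CREB and GGGCGG for the GC box. None of the 16 windows of the 9 members held the STAT motif, which was present in 7.02% of the 32851 windows of all genes. The Il6 window held an AP-1 motif 249 to 243 bases and an NF-kB motif 43 to 35 bases before the start. These were present in 6.75% and 1.07% of all windows. The Osmr window held the GC box on the opposite strand at 198 to 193 and at 23 to 18 bases before the RefSeq start. On either strand, 32.7% of all windows held it at least once. The Il6ra window held none of the 5 motifs. A match describes the letters of the window alone, and the Il6 window is that of the mouse gene, not of the transgene, which is driven by the Gfap promoter.

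The libraries held between 11591066 and 16877001 counts in WT and between 7559524 and 11072008 counts in GFAP-IL6, so each GFAP-IL6 library was shallower than each WT library. Levels are given as CPM, the counts of a gene divided by the TMM-scaled size of its library in mega counts. On this scale a count of 3 was worth between 0.179 and 0.261 CPM in WT and between 0.269 and 0.396 CPM in GFAP-IL6. Gfap was at 94.5 CPM on average in WT and 678 CPM in GFAP-IL6, with a log2 fold change of 2.84 (edgeR adjusted p of 5.49e-06). Its reads are those of the mouse gene and of any Gfap sequence transcribed with the transgene. Of the cortical neuron markers, Tbr1 was between 145 and 159 CPM in WT and between 137 and 151 CPM in GFAP-IL6, and Neurod6 was between 81.2 and 93.5 CPM and between 81.0 and 91.4 CPM. WT replicate 3 stood apart in its 8766 counts of Ttr, a choroid plexus gene, against at most 358 in any other library. WT replicate 2 stood apart in striatal genes, with 236 counts of Adora2a against between 16 and 40 in the others and 71 counts of Drd2 against at most 16. The 4 striatal markers summed to between 98.9 and 163 CPM in WT and between 77.4 and 100.4 CPM in GFAP-IL6. Values without each of these libraries are therefore given for the members that were called.

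Expression of the 9 members was compared between the groups to see which ligands and receptors of the family differ in cortex where IL6 is overexpressed. Il6, Il6ra and Osmr were higher in GFAP-IL6 at an adjusted p under 0.05 by the edgeR quasi-likelihood test. Il6 is the gene of the transgene and passed the filter on low counts through the GFAP-IL6 libraries alone. Its call therefore follows from the design, here and in the member counts below. The fold changes of all 8 members tested were above 1, as were those of 7573 of the 15341 genes tested. Those of Cntf, Lifr and Cntfr were close to 1, with intervals that included it. Osmr rose by 2.16 ± 0.16 (SE, n = 3 per group) and Il6ra by 0.84 ± 0.14 on the log2 scale. The members Il6st, Il11ra1, Cntfr, Lifr and Cntf were tested and not called, and Lif was too low to test. Among all 15341 genes tested, 439 were called (2.86%), of which 407 were higher. With an absolute log2 fold change over 1 in addition, 211 genes (1.38%) and the members Il6 and Osmr were called. The groups did not overlap for 5 of the 8 members tested, which was the case for 26.5% of all genes tested. The median log2 fold change of the tested members was 0.31, against -0.0038 for all genes tested, and it does not depend on the size of the Il6 value.

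**Figure D1:**
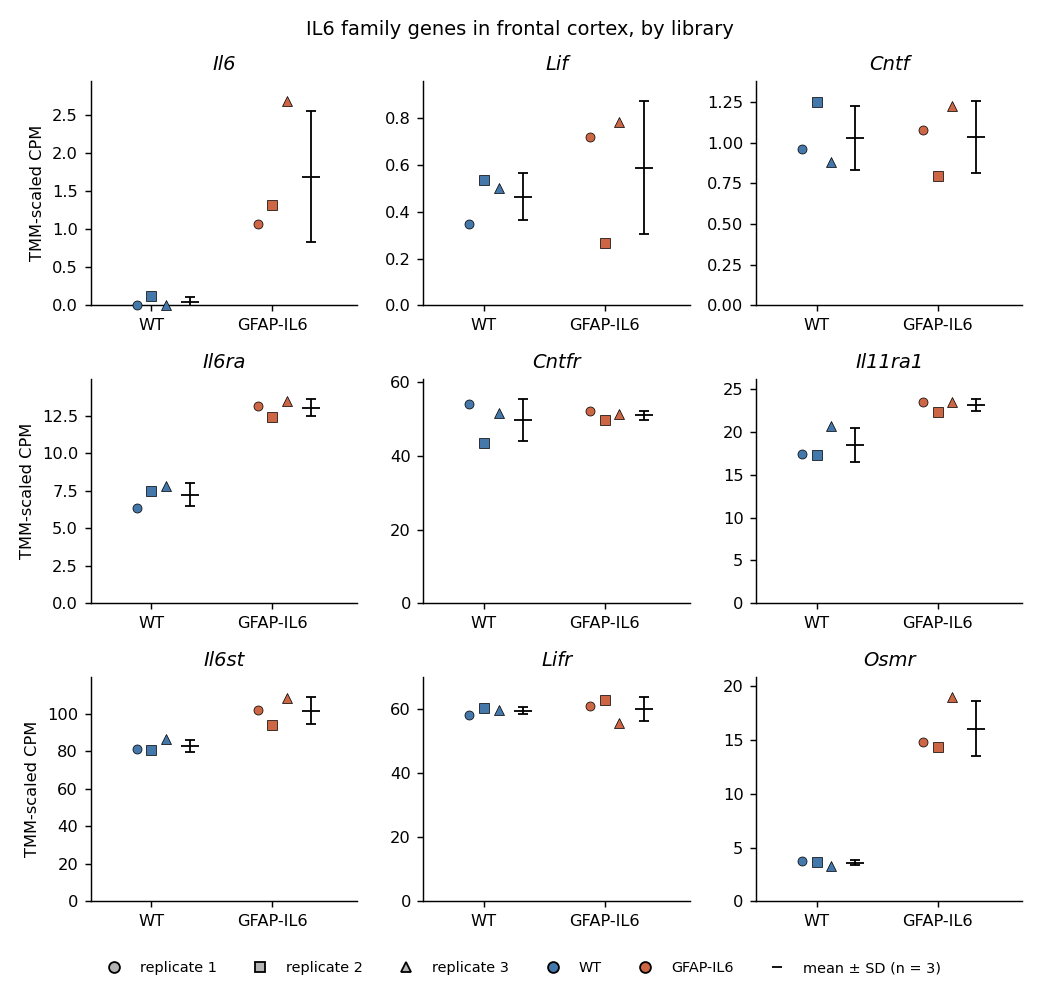
TMM-scaled CPM of the 9 members on linear axes starting at 0, one panel per gene, with a point for each of the 3 WT and 3 GFAP-IL6 libraries and the mean ± SD beside them. The GFAP-IL6 libraries lay above all WT libraries for Il6, Il6ra, Osmr, Il6st and Il11ra1, and the groups overlapped for Lif, Cntf, Cntfr and Lifr.

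**Figure D2:**
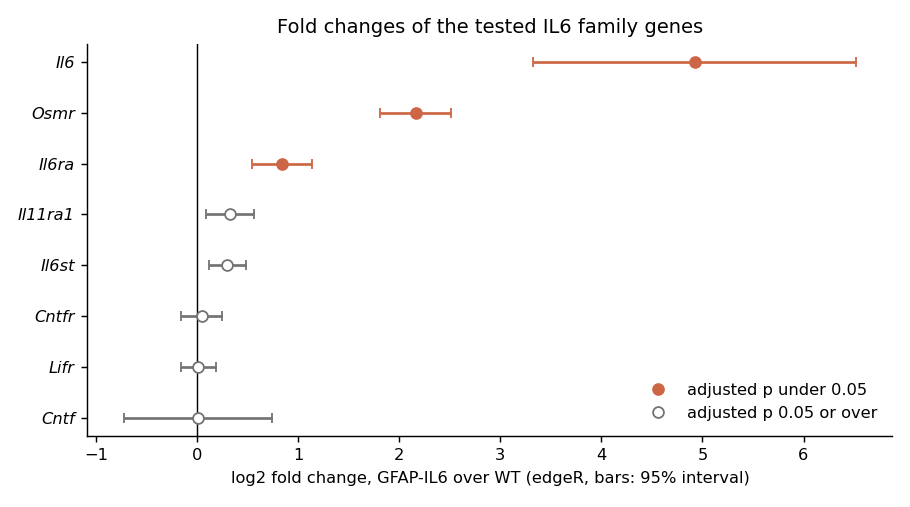
Log2 fold change of GFAP-IL6 over WT with its 95% confidence interval for the 8 members tested by edgeR, with those called at an adjusted p under 0.05 marked. The intervals of Il6, Osmr and Il6ra lay furthest above 0, from 3.33, 1.81 and 0.54 upwards, and those of Cntfr, Lifr and Cntf included 0.

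Among the ligands, Il6 (ENSMUSG00000025746.9, GRCm38 chr5:30013114-30019981, plus strand) encodes the cytokine that the transgene overexpresses. Its counts were 0, 2 and 0 over the WT libraries and 12, 10 and 24 over the GFAP-IL6 libraries. In WT, Il6 was thus at or under the floor of 3 counts in each library, and in GFAP-IL6 it was above it in each. The GFAP-IL6 libraries were at 1.08, 1.32 and 2.68 CPM, with a mean of 1.69 ± 0.864 CPM (SD, n = 3). The level counted for Il6 thus remained low even where the transgene is present. Any transgene reads outside the sequence of the mouse Il6 gene would be missing from it. The pooled counts gave a ratio of 36.7 between the groups, with an exact 95% interval of 9.60 to 312 that covers counting error only. The fitted log2 fold change was 4.92 (edgeR adjusted p of 0.00208), a value that depends on the few WT counts, and it was 7.21 without WT replicate 2, which held both of them (edgeR adjusted p of 0.00101). Without WT replicate 3 it was 4.37 (edgeR adjusted p of 0.0104), and the adjusted p was between 2.87e-07 and 0.0221 over the 10 alternatives.

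Lif (ENSMUSG00000034394.12, chr11:4257557-4272514, plus strand), the gene of leukemia inhibitory factor, was counted 4, 9 and 8 times in the WT libraries and 8, 2 and 7 times in the GFAP-IL6 libraries. Its level of 0.348, 0.537 and 0.502 CPM in WT and 0.717, 0.264 and 0.781 CPM in GFAP-IL6 overlapped between groups. Lif did not pass the filter on low counts, and a difference was not detectable at this depth.

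Cntf (ENSMUSG00000079415.2, chr19:12763660-12765632, minus strand), which encodes ciliary neurotrophic factor, a survival factor for neurons made by glia, had between 6 and 21 counts per library. Its levels were 0.958, 1.25 and 0.879 CPM in WT and 1.08, 0.792 and 1.23 CPM in GFAP-IL6. The groups overlapped, with a mean of 1.03 CPM in both and SDs of 0.197 in WT and 0.221 in GFAP-IL6. Its log2 fold change of 0.01 had a 95% interval of -0.73 to 0.74 (edgeR adjusted p of 0.992), so a change of either sign within that range cannot be told from none. Of its exon bases in GENCODE M21, 78.9% also belong to Zfp91 on the same strand, and reads in those bases cannot be assigned to a single gene by position. Whether such reads were counted is not given. The part of the Cntf counts that comes from the remainder of its exons is therefore not known.

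Among the ligand-binding receptors, Il6ra (ENSMUSG00000027947.9, chr3:89864059-89913196, minus strand) encodes the receptor that IL6 itself binds. It was at 6.36, 7.52 and 7.85 CPM in the WT libraries and at 13.2, 12.4 and 13.5 CPM in the GFAP-IL6 libraries. The groups were separate, and the lowest GFAP-IL6 library was well above the highest WT library. The mean went from 7.24 ± 0.782 to 13.0 ± 0.561 CPM (SD, n = 3 each), a 1.79-fold rise with a 95% interval of 1.46 to 2.20 (edgeR adjusted p of 0.00419). The log2 fold change was 0.86 without WT replicate 2 (edgeR adjusted p of 0.00317) and 0.90 without WT replicate 3 (edgeR adjusted p of 0.0103), and the adjusted p was between 9.35e-05 and 0.0369 over all alternatives. A stretch of 2.80% of its exon bases is shared with the antisense gene Gm42809, which had 8 counts over all libraries.

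Il11ra1 (ENSMUSG00000073889.8, chr4:41699989-41769474, plus strand), the receptor gene for interleukin-11, was at 17.4, 17.2 and 20.7 CPM in WT and at 23.5, 22.3 and 23.4 CPM in GFAP-IL6. No WT library reached the level of the lowest GFAP-IL6 library, although the difference did not pass the threshold. The log2 fold change was 0.32, with a 95% interval of 0.09 to 0.56 and an adjusted p of 0.132 by edgeR. Its near-identical copy Il11ra2 had 0 counts in all libraries. Reads that match both copies equally are not uniquely aligned and would be missing from both genes.

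Cntfr (ENSMUSG00000028444.15, chr4:41657498-41697089, minus strand), the CNTF receptor gene, was at 54.1, 43.4 and 51.5 CPM in WT and at 52.0, 49.7 and 51.2 CPM in GFAP-IL6. All 3 GFAP-IL6 libraries fell within the range of the WT libraries. The log2 fold change was 0.04 with a 95% interval of -0.16 to 0.25 (edgeR adjusted p of 0.835). A change of more than about 0.25 in either direction on the log2 scale lies outside this interval. Cntfr and Il11ra1 are neighbours on chromosome 4 and are transcribed in opposite directions.

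Among the receptors that carry the signal, Osmr (ENSMUSG00000022146.10, chr15:6813577-6874969, minus strand) encodes the oncostatin M receptor. The WT libraries held 43, 62 and 53 of its reads and the GFAP-IL6 libraries 165, 109 and 170, more in each GFAP-IL6 library in spite of the lower total. The levels were 3.75, 3.70 and 3.33 CPM in WT and 14.8, 14.4 and 19.0 CPM in GFAP-IL6. Every library with the transgene was far above the WT libraries, and GFAP-IL6 replicate 3 was the highest. The mean rose from 3.59 ± 0.229 to 16.1 ± 2.54 CPM (SD, n = 3 each), a fold change of 4.47 with a 95% interval of 3.50 to 5.72 (edgeR adjusted p of 8.36e-06). The log2 fold change was 2.19 without WT replicate 2 (edgeR adjusted p of 1.77e-06) and 2.11 without WT replicate 3 (edgeR adjusted p of 4.83e-05), and the adjusted p was between 2.94e-20 and 0.000196 over the alternatives, with the lowest by DESeq2.

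Lifr (ENSMUSG00000054263.9, chr15:7090614-7197489, plus strand), the closely related receptor gene for LIF, lies 215644 bases from Osmr on the same chromosome and opposite strand, with 1 annotated gene between them. It was at 58.2, 60.2 and 59.8 CPM in WT and at 61.0, 62.9 and 55.7 CPM in GFAP-IL6. The groups overlapped, with means of 59.4 ± 1.06 and 59.9 ± 3.72 CPM (SD, n = 3 each). The log2 fold change was 0.01 with a 95% interval of -0.16 to 0.18 (edgeR adjusted p of 0.953), an interval that does not overlap that of Osmr, 1.81 to 2.51.

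Il6st (ENSMUSG00000021756.10, chr13:112464070-112510086, plus strand), the gene of the shared receptor gp130, was at 81.4, 80.6 and 86.5 CPM in WT and at 102, 94.2 and 109 CPM in GFAP-IL6. The groups did not overlap, but the difference missed the threshold. The log2 fold change was 0.30 with a 95% interval of 0.11 to 0.48 and an adjusted p of 0.0851 by edgeR.

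Levels were compared between genes as TPM, which also divides counts by the gene length in the table and gives each library the same total. In WT, Cntfr had the highest level of the family with 61.0 ± 8.54 TPM (SD, n = 3). It was followed by Il6st with 20.96 ± 1.08 TPM and Il11ra1 with 20.4 ± 2.25 TPM, whose ranges overlapped, and then by Lifr with 16.0 ± 0.230 TPM. Il6ra at 2.32, Osmr at 1.82, Lif at 0.316 and Il6 at 0.0441 TPM came last and were separate from each other. Cntf was left out of this order. Its 2.66 TPM over the full gene length would be 12.6 TPM if all its reads came from the 226 bases that it does not share with Zfp91. In WT cortex the transcripts of Il6ra and Osmr were thus both scarce beside those of Il6st, Cntfr, Lifr and Il11ra1. Levels in bulk tissue do not give the level in the cells that express a gene, nor that of the protein. In GFAP-IL6 the first 4 genes kept their order, again with overlapping ranges of Il6st and Il11ra1. They were followed by Osmr with 8.52 ± 1.32 TPM and Il6ra with 4.40 ± 0.209 TPM, the reverse of their order in WT, and then by Il6 at 2.03 TPM and Lif at 0.424 TPM. The order of Osmr and Il11ra1 depends on the gene length used, since GENCODE M21 gives Osmr 12113 exon bases where the table has 5491, and Il11ra1 4471 where it has 2510. With the M21 lengths, an alternative chosen after seeing the data, Osmr would be at 0.823 TPM in WT and 3.86 TPM in GFAP-IL6, below Il6ra in both groups. Il11ra1 would be at 11.4 and 15.1 TPM, below Lifr in both. The difference between groups in a gene does not depend on its length.

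With the lengths in the table, the summed TPM of the family was 132, 113 and 131 in WT and 157, 147 and 159 in GFAP-IL6. Osmr made up between 1.29% and 1.60% of this sum in WT and between 5.05% and 6.32% in GFAP-IL6. Il6ra made up between 1.59% and 2.07% in WT and between 2.82% and 2.86% in GFAP-IL6. Cntfr still held the largest share, with between 45.5% and 51.6% in WT and between 41.4% and 43.1% in GFAP-IL6. These shares sum to a fixed total, so a lower share of Cntfr or Lifr is no lower level of these genes.

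**Figure D3:**
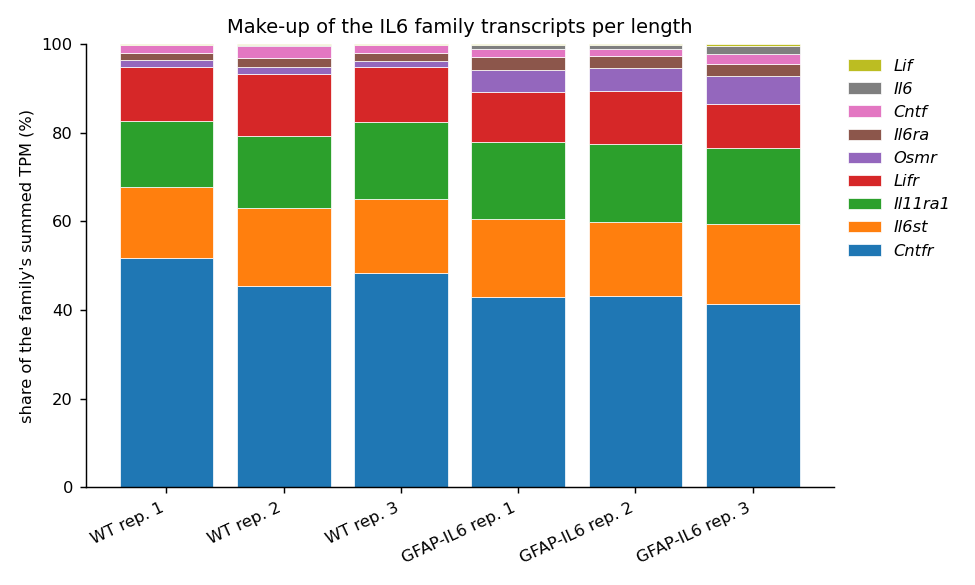
Share of each member in the summed TPM of the 9 members, in percent, as a stacked bar for each of the 6 libraries. Cntfr holds the largest segment in each library, and the Osmr segment is at least 5.05% in each GFAP-IL6 library against at most 1.60% in WT.

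The balance between receptor transcripts was compared within each library as the ratio of counts per base of gene length. This measure does not depend on how libraries are scaled. The ratio of Osmr to Lifr was 0.121, 0.116 and 0.105 in WT and 0.456, 0.431 and 0.641 in GFAP-IL6. With the lengths in the table, Osmr transcripts thus stood at no more than 0.121 of the level of Lifr transcripts in WT. In GFAP-IL6 they stood at no less than 0.431 of it. With the M21 lengths these bounds would be 0.0573 and 0.204, and the fold between the groups is the same. The ratio of Osmr to Il6st was 0.0919, 0.0916 and 0.0769 in WT and 0.289, 0.306 and 0.350 in GFAP-IL6. The ratio of Il6ra to Il6st was 0.0991, 0.118 and 0.115 in WT and 0.164, 0.167 and 0.158 in GFAP-IL6. For all 3 ratios the groups did not overlap, with mean log2 differences of 2.14, 1.86 and 0.56 in this order. The exact two-sided permutation p was 0.1 for each, which is the smallest that 3 against 3 libraries allow, and 0.1 after adjustment over the 3 ratios, so this test cannot reach 0.05 with 3 libraries per group.

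In bulk tissue, more cells of a type and more RNA per cell cannot be told apart, so the levels of the members were set beside those of cell type markers. Of 7 microglial markers, 6 were called higher in GFAP-IL6 and 0 lower, against 407 higher and 32 lower of all 15341 genes tested. The sum of the 7 markers went from between 356 and 441 CPM in WT to between 663 and 764 CPM in GFAP-IL6. P2ry12, a receptor of resting microglia, was the exception, with a log2 fold change of -0.27, and was not called. Per 1000 CPM of these markers, Il6ra stood at 17.9, 17.1 and 18.8 CPM in WT and at 19.9, 18.5 and 17.7 CPM in GFAP-IL6. The groups overlapped, and the ratio of the means was 1.04, so Il6ra and the summed microglial markers differed between groups by about the same factor. Whether the microglial markers had a part in the Il6ra result was not tested.

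Of 7 astrocyte markers, Gfap alone was called, and the median log2 fold change of the list was 0.04. Of 6 endothelial markers, 4 were called higher and 0 lower, where 2.86% of all genes tested were called in either direction. The endothelial markers summed to between 121 and 140 CPM in WT and between 201 and 243 CPM in GFAP-IL6. Per 1000 CPM of the 6 astrocyte markers other than Gfap, Osmr stood at 0.736, 0.692 and 0.519 CPM in WT and at 2.64, 2.47 and 2.91 CPM in GFAP-IL6. The ratio of these means was 4.12, close to the fold change of Osmr itself, and the groups did not overlap. Per 1000 CPM of the endothelial markers, Osmr stood at 28.7, 30.5 and 23.8 CPM in WT and at 73.6, 64.7 and 78.2 CPM in GFAP-IL6, with a ratio of means of 2.61. The difference in Osmr thus remained in the same direction relative to either of these sums. Slc1a2, at 3638 CPM in WT and 4018 CPM in GFAP-IL6 on average, weighs most in the astrocyte sum. The ratio to that sum therefore mostly reflects this gene. Whether astrocytes or endothelial cells had a part in the Osmr result was not tested. Gfap, left out of the astrocyte list here, had a larger fold change of 7.15, against 4.47 for Osmr. Among 8 leukocyte markers only Ptprc, which microglia also express, was high enough to test. It was called higher, with a fold change of 4.74 beside the 4.47 of Osmr, and Osmr was not set against this list. The leukocyte list summed to between 4.53 and 5.40 CPM in WT and between 19.4 and 27.1 CPM in GFAP-IL6. Of the T cell genes, Cd3d was at 0 counts in all libraries, and Cd3e was at 0 in WT and at 3, 1 and 2 counts in GFAP-IL6. The monocyte gene Ccr2 was at 0.444 ± 0.246 CPM in WT and 1.12 ± 0.412 CPM in GFAP-IL6 (SD, n = 3 each) and was too low to test. Its counts of 2, 11 and 8 in WT and 14, 5 and 13 in GFAP-IL6 overlapped. The highest WT library was at 0.656 CPM and the lowest GFAP-IL6 library at 0.660 CPM. The part of such cells in the results on the members was not tested. The 6 neuronal markers, for comparison, summed to between 6982 and 7397 CPM in WT and between 5996 and 6936 CPM in GFAP-IL6.

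**Figure D4:**
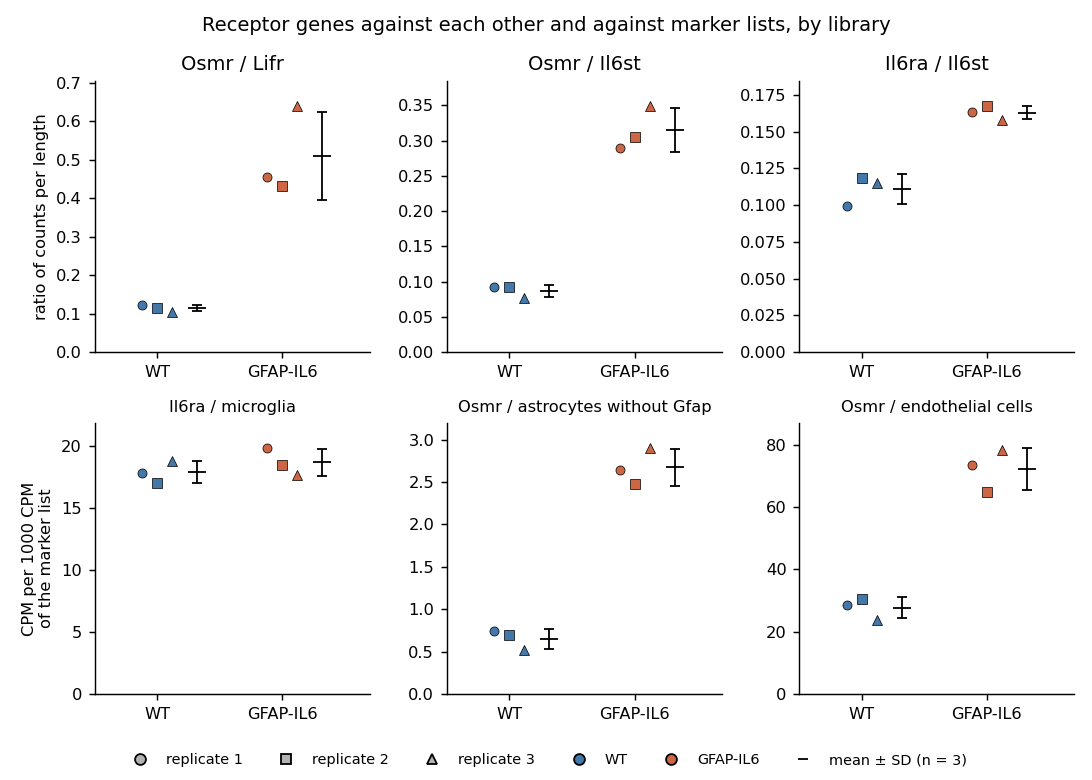
In the upper row, the ratio of Osmr to Lifr, Osmr to Il6st and Il6ra to Il6st in counts per base of gene length, and in the lower row, the CPM of Il6ra or Osmr per 1000 CPM of a marker list, for each library with the mean ± SD (n = 3) on linear axes starting at 0. The GFAP-IL6 libraries lie above the WT libraries in all panels but that of Il6ra against microglial markers, where the groups overlap with means of 17.9 and 18.7.

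The genes that act with the members were then described from a list of 38 genes of the pathway, of which 27 could be tested. Of these, 6 were called higher and 0 lower in GFAP-IL6, against 407 higher and 32 lower of all 15341 genes tested. The median of the 27 log2 fold changes was 0.21, against -0.0038 for all genes tested. The 6 were Socs3, Stat3, Icam1, Bcl3, Junb and Cebpd. None of the other 9 ligand genes or of the 3 other receptor genes was called, and most were too low to test. Osm, the ligand gene for the receptor whose transcript rose, was counted 0, 1 and 0 times in the WT libraries and 0, 2 and 5 times in the GFAP-IL6 libraries. Il11, the ligand of Il11ra1, had between 1 and 6 counts in all libraries. The members Osmr and Il11ra1 were thus measured in tissue where the transcripts of their own ligands were at or near the floor. Of the proteases that shed IL6R from the cell surface, Adam10 had a log2 fold change of -0.05 and Adam17 one of 0.28 (edgeR adjusted p of 0.241).

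Of 7 JAK and STAT genes, Stat3, the main transcription factor downstream of gp130, was the one called. The log2 fold changes of 6 of the 7 were above 0, and the median of the 7 was 0.37, against -0.0038 for all genes tested. The level of Stat3 went from 47.6 ± 0.784 to 82.7 ± 13.1 CPM (SD, n = 3 each), with a log2 fold change of 0.80 (edgeR adjusted p of 0.000858). Socs3, a target of STAT3 whose product binds gp130 and limits its signal, was counted 28, 47 and 47 times in the WT libraries and 112, 68 and 110 times in the GFAP-IL6 libraries. It was the only one of 4 tested feedback inhibitors called, with a log2 fold change of 1.92 ± 0.19 (SE) and an adjusted p of 7.37e-05 by edgeR. The 4 genes of the SHP2 and MAPK branch had log2 fold changes between -0.08 and -0.02, and none was called. Transcript levels of these genes do not measure the activity of the branch.

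Of 7 tested genes known as STAT3 targets, 4 were called higher, against 407 of all 15341 genes tested. The median log2 fold change of the 7 was 1.03, against -0.0038 for all genes tested. Bcl3, an IkB family regulator, was counted 4, 0 and 8 times in the WT libraries and 26, 17 and 30 times in the GFAP-IL6 libraries, with a log2 fold change of 3.23. Like Il6, Bcl3 passed the filter on low counts through the GFAP-IL6 libraries alone. A higher level in GFAP-IL6 was thus a condition of its being tested. Its call is therefore no separate support, here and in the counts and medians of the STAT3 target and pathway lists. Icam1, an adhesion molecule, had a log2 fold change of 1.24, Junb, an AP-1 subunit, one of 1.03, and Cebpd, a C/EBP transcription factor, one of 1.49. The edgeR adjusted p was 0.00463 for Bcl3, 0.00442 for Icam1, 0.0108 for Junb and 0.0184 for Cebpd. The calls of 3 of these, but not their direction, depended on single libraries, and the log2 fold changes without them were 3.03 for Bcl3, 1.45 and 1.37 for Cebpd and 0.93 and 1.01 for Junb. Bcl3 was at an edgeR adjusted p of 0.0586 without GFAP-IL6 replicate 3, Cebpd at 0.0749 and 0.149 without GFAP-IL6 replicates 2 and 3, and Junb at 0.0678 and 0.0521 without GFAP-IL6 replicates 1 and 2. In all alternatives the adjusted p was at least 2.61e-07 for Bcl3, 9.98e-05 for Cebpd and 8.59e-09 for Junb.

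**Figure D5:**
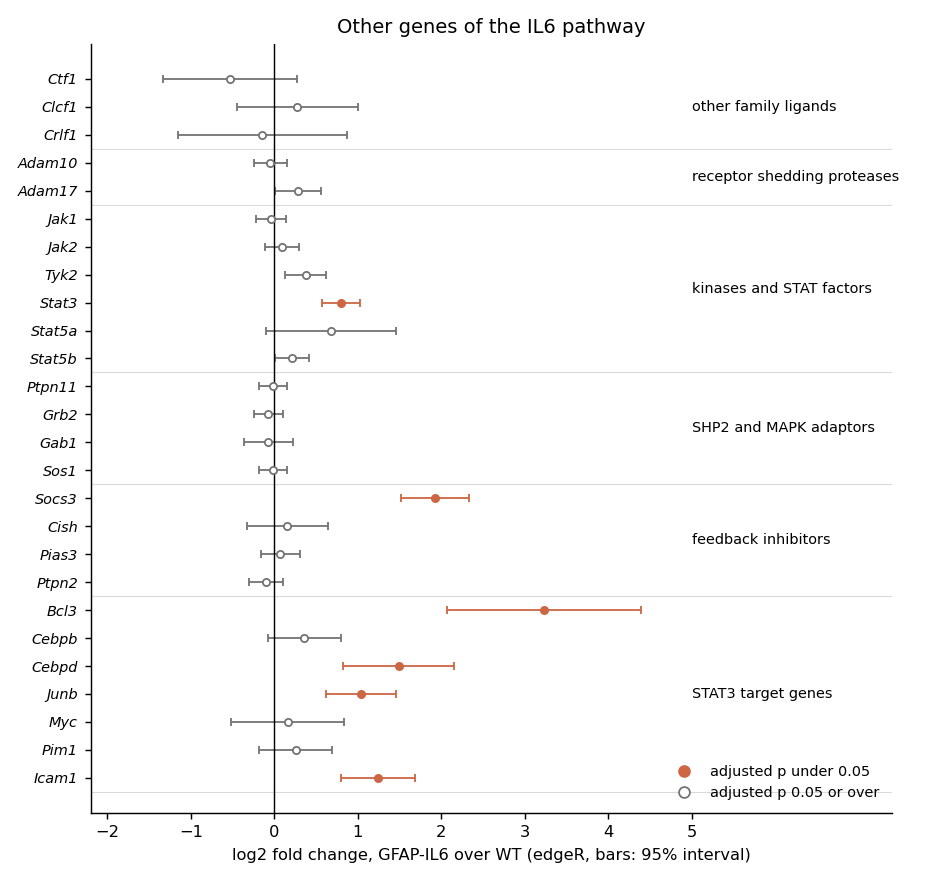
Log2 fold change of GFAP-IL6 over WT for tested pathway genes that are not members, by role, with bars for the 95% confidence interval and genes called at an edgeR adjusted p under 0.05 filled. The called genes are Bcl3, Socs3, Cebpd, Icam1, Junb and Stat3, and the SHP2 and MAPK genes lie between -0.08 and -0.02.

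The tested genes whose levels followed those of the called members most closely over the 6 libraries were named as a description. The libraries fall into 2 groups, and any gene that differs between the groups scores high on this measure, Pearson's r of log2 CPM. For Il6ra the highest were Fcgr1, a high-affinity Fc receptor, Pld4 and Il1a, the gene of interleukin-1 alpha, with r between 0.998 and 0.999. For Osmr they were Plcg2, a phospholipase of immune receptor signalling, Mylip and Csf2rb, a cytokine receptor subunit, with r between 0.997 and 0.999. For Il6, with few counts in each library, they were Ctsz, Tgm2 and Tmem119, a microglial marker, with r between 0.996 and 0.998. The log2 fold changes of these 9 genes lay between 0.78 for Mylip and 2.68 for Csf2rb.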

How the data were processed

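TruSeq mRNA libraries of frontal cortex from 3 WT and 3 homozygous GFAP-IL6 mice were analysed, grouped by their labels. The authors mapped reads to mm10 with STAR 2.4 and counted those with a single alignment over GENCODE genes with featureCounts. Whether strand was used is not given in the sources used here. The labels name hg19, but the gene identifiers are those of mouse. The deposited values are raw counts per gene for 33000 genes, and the table also gives gene lengths. Positions were taken from GENCODE M21 on GRCm38.

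Counts were tested with edgeR 4.0.16 in R 4.3.3 (quasi-likelihood F-test, TMM, filterByExpr, Benjamini-Hochberg over 15341 genes), with group as the only term. Standard errors were derived from the F statistic, and CPM and TPM are not adjusted for duplicates, since reads carried no molecular identifiers. Depth per library was between 7559524 and 16877001 counts, and floors of 3 counts cover counting error only. The fits were also run on simulated counts with known changes, made only in genes more abundant than Il6, Bcl3 and Cebpd. That run does not cover calls at such low counts, and its outcome is not reported here. Alternatives were size factors of DESeq2, no filter, DESeq2 1.42.0, a replicate block and leaving out each library. Gene lengths of GENCODE M21 were added after the data were seen.

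The members and lists were chosen with earlier results of these data known. Named genes were all members, Gfap, up to 8 called pathway genes and the 3 genes most like each called member. Genes named for counts of their ligand or protease, marker genes singled out, and levels per marker list were chosen after their values were seen. A pathway gene and a marker gene are counted in their lists but not reported here.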

Additional observations from a re-analysis of the deposited data

How the results depend on the processing

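Il6, Il6ra and Osmr were the members called in each of the 10 alternatives, and no other tested member passed the threshold in any of them. The adjusted p of Il6st was between 0.0531 and 0.356 and that of Il11ra1 between 0.0924 and 0.381 over these alternatives. Over the leave-one-out fits, Il6 had log2 fold changes between 4.37 and 7.21, Il6ra between 0.77 and 0.90 and Osmr between 2.03 and 2.23, while those of members near 0 changed sign, with ranges of -0.11 to 0.19 for Cntf, -0.0487 to 0.11 for Cntfr and -0.0241 to 0.0631 for Lifr. Of the pathway genes, between 4 and 7 were called, with 6 in the reported fit.

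The number of all genes called depended more on the processing. It was 439 as reported, 1154 without the filter on low counts and between 187 and 1061 when 1 library was left out, lowest without GFAP-IL6 replicate 3 and highest without WT replicate 1. The same-numbered libraries of the groups came from different mice, and their deviations correlated at 0.123, 0.0192 and 0.0505, so the numbers were not used as pairs. With the replicate block, 750 genes were called, among them the same 3 members. The cause of these shifts was not tested. Depth limits Lif, Cntf and Il6 most, with at most 24 counts in any library.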
